A study of Mus musculus with 12 samples.

Results

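The genes described here are 39 mouse genes of the endoplasmic reticulum (ER): chaperones, folding enzymes, the protein channel and signal peptidase through which secreted proteins enter, the machinery that removes misfolded proteins, and the 3 sensors of unfolded protein. They were chosen by symbol. The rule itself uses no measured value, but it was set with earlier results of these data known. All 39 were found among the 48795 genes of the count table and passed the filter on low counts that left 14756 genes for testing. The 12 RNA-seq libraries were made from leukemic stem cells of the long-term hematopoietic type (LTHSC), obtained by flow sorting from the marrow of C57BL/6 animals that had chronic myeloid leukemia (CML). The groups were Prx1_Cre mice, Tek_Cre mice and No_Cre mice, with 4 libraries each, and the labels speak of the same animals as recipient and as primary mice. The Prx1 driver is active in mesenchymal cells of the limb skeleton and their descendants in the marrow stroma, while the Tek driver is active in endothelium and also in many blood-forming cells. The title of the series names Cxcl12 of the mesenchymal niche, but the labels give no genotype at Cxcl12, no age, no treatment and no leukemia model. They do not say whether each library came from 1 mouse or from a pool, so p-values measure the spread between these libraries. That spread was narrow in places, with immunoglobulin genes at 25.2 to 26.0% of counts across the 4 Tek_Cre libraries. P4hb averaged 905 ± 4.54 counts per 1000000 in No_Cre (SD, n = 4). The spread was wider elsewhere, as for Spcs3 in Prx1_Cre, at 246 ± 39.2. Whether the libraries of a group stand for separate mice was not tested. Small p-values and frequent calls therefore do not show differences between mice.

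Secreted and membrane proteins enter the ER through the Sec61 channel, lose their signal peptide, fold with the help of chaperones and disulfide isomerases, and leave for the Golgi. When unfolded protein builds up, the sensors Ern1, Atf6 and Eif2ak3 start the unfolded protein response, which raises ER folding capacity and the removal of failed proteins (ER-associated degradation, ERAD) and slows protein synthesis. Ern1 acts by splicing Xbp1 mRNA and Atf6 by being cut to release a transcription factor, so counts per gene do not show whether a sensor was active. Antibody-secreting plasma cells carry a very large ER and need Xbp1, whereas blood stem cells are known for a low rate of protein synthesis.

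Chaperone genes are known for the ER stress response element (ERSE), a CCAAT box and a CCACG box 9 bases apart that is bound by the transcription factor NF-Y together with Atf6. An exact search on both strands of the 250 bases before the gene start (RefSeq promoters, GRCm38.p6) found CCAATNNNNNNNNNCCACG in 8 of the 31 genes with a promoter in the table, which is 25.8%, and in 35 of all 27025 genes, which is 0.130%. The matches are shown because the genes that carry them include the chaperones of highest level, and the capitals mark both boxes.
Hspa5, chr2:34772025-34772043, 65 to 47 bases before the start: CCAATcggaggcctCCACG
Hsp90b1, chr10:86705638-86705656, 212 to 194 bases before the start: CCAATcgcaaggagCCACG
Hsp90b1, chr10:86705533-86705551, 107 to 89 bases before the start: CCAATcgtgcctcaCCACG
Dnajc3, chr14:118937827-118937845, 105 to 87 bases before the start: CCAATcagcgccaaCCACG
Calr, chr8:84847075-84847093, 162 to 144 bases before the start: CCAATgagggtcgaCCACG
Canx, chr11:50325800-50325818, 145 to 127 bases before the start: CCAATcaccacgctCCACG
Pdia6, chr12:17266491-17266509, 98 to 80 bases before the start: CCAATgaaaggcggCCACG
Creld2, chr15:88819520-88819538, 126 to 108 bases before the start: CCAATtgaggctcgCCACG
Syvn1, chr19:6046532-6046550, 44 to 26 bases before the start: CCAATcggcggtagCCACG
Hsp90b1 held exact matches at 2 places. Elements that differ in any letter of the boxes were not sought, so these numbers do not count all possible elements of a promoter. The matches of Hsp90b1 farthest from the start, of Canx and of Creld2 lay on the minus strand of the genome and the other matches on the plus strand. Herpud1 alone of the 31 held the related ERSE-II, in which ATTGG and CCACG boxes are 1 base apart, as ATTGGgCCACG at chr8:94386377-94386387, against 10 of 27025 genes. The shorter element TGACGTGG, a form bound by Xbp1, was present in 2 of 31 members, Txndc5 and Txndc11, and in 0.603% of all genes. The amino acid response core TGATGNAA was found in 2 of 31 (6.45%), Txndc5 and Herpud1, and in 3.91% of all genes. The single CCACG box, which lies inside ERSE, ERSE-II and also, as CGTGG on the other strand, inside TGACGTGG, was present in 24 of 31 promoters (77.4%) and in 31.0% of all promoters.

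Whole promoters are printed for 3 genes whose RNA took different courses across the groups, Hspa5, Hsp90b1 and Creld2, in the direction of transcription. Only the boxes of exact ERSE matches are in capitals, and the other letters may hold inexact forms of the element.
Hspa5: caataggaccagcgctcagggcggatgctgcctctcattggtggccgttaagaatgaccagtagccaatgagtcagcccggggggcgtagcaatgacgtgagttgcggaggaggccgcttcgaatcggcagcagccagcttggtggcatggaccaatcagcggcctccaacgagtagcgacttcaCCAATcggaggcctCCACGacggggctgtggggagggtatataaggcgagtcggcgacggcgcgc
Hsp90b1: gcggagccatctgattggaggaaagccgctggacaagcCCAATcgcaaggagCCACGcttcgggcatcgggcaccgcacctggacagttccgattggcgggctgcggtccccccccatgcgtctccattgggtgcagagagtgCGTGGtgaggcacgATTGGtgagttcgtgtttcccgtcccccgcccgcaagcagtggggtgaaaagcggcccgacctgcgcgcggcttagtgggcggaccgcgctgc
Creld2: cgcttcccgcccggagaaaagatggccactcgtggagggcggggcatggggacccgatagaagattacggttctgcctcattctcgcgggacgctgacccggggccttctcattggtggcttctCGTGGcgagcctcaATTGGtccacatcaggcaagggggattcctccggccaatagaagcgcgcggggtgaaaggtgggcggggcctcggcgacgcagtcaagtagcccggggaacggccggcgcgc
These windows are chr2:34771840-34772089 on the plus strand, chr10:86705445-86705694 on the minus strand and chr15:88819396-88819645 on the plus strand of GRCm38.p6. Rose and fell are used here of genes with an adjusted p under 0.05 in edgeR's quasi-likelihood test over all genes. In Prx1_Cre against No_Cre, 6 of the 8 genes with an ERSE match rose, 1 fell and 1 was not called, and of the 23 searched members without one 13 rose, 7 fell and 3 were not called, where 36.7% of all genes tested rose and 39% fell. In Tek_Cre against No_Cre 5 of the 8 rose, 1 fell and 2 were not called, and of the 23 without a match 16 rose, 1 fell and 6 were not called (26.4% of all genes rose and 26.5% fell). In Prx1_Cre against Tek_Cre 4 of the 8 rose and 4 fell, and of the 23 without a match 7 rose, 15 fell and 1 was not called (37.8% of all genes rose and 39.8% fell). Whether genes with and without a match differed was not tested. The GENCODE model of Hspa5 starts within the window printed, upstream of the RefSeq start. A match in these letters says nothing about binding in these cells, and members without a promoter in the table (Hyou1, Manf, Derl1, Atf6, Ssr2, Sec61a1, Spcs3 and Sec11c) were not searched.

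**Figure D1:**
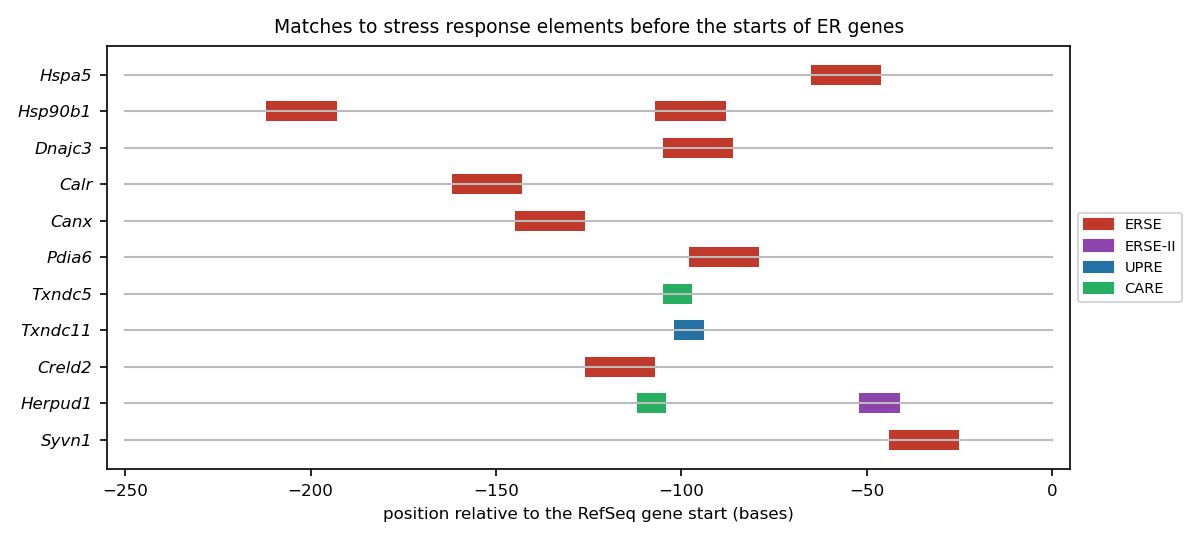
Positions of exact matches to 4 elements in the 250 bases before the RefSeq start of the 11 members that hold one, in bases from the start, with one line per gene. ERSE matches lie between 212 and 26 bases before the start, and Hsp90b1 has 2 of them. Only the first listed start of each gene is drawn, so the TGACGTGG match of Txndc5, 138 to 131 bases before another start, is not shown.

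Total counts were 22385590 to 28253956 per library in Prx1_Cre, 15715603 to 28860324 in Tek_Cre and 19988050 to 24007569 in No_Cre. Values below are counts per 1000000 counts of the library (CPM, scaled by trimmed mean of M-values factors). Changes are log2 fold changes ± SE from edgeR's quasi-likelihood test, with rose and fell kept for an adjusted p under 0.05 over all genes tested. The test reports no SE, so it was derived as the absolute log2 fold change divided by the square root of the F statistic. The groups differed across the transcriptome, so calls were common. They also differed in markers of other cells. Immunoglobulin genes took 0.296 to 0.310% of counts in Prx1_Cre, 25.2 to 26.0% in Tek_Cre and 7.31 to 7.71% in No_Cre, and 9 plasma cell markers summed to 16.1 to 17.9 CPM in Prx1_Cre, 1420 to 1469 CPM in Tek_Cre and 333 to 352 CPM in No_Cre. All 9 fell in Prx1_Cre and rose in Tek_Cre against No_Cre, and Irf4 and Tnfrsf17 had 0 counts in Prx1_Cre. The sum of 9 erythroid markers was 5900 to 5970 CPM in Prx1_Cre, 1239 to 1289 CPM in Tek_Cre and 1677 to 1724 CPM in No_Cre. All 9 rose in Prx1_Cre against No_Cre, and in Tek_Cre against No_Cre 7 fell and 2 were not called. Granule genes of neutrophils (7 genes) summed to 40856 to 43978 CPM in Prx1_Cre, 24301 to 24717 CPM in Tek_Cre and 21806 to 22089 CPM in No_Cre. In Prx1_Cre against No_Cre 6 of the 7 rose and 1 fell (median log2 fold change 0.83), and in Tek_Cre against No_Cre 3 rose and 4 fell, with a median of -0.87 that runs against the order of the sums. The 8 markers of LTHSC were all detected and summed to 1250 to 1301 CPM in Prx1_Cre, 2497 to 2522 CPM in Tek_Cre and 2171 to 2219 CPM in No_Cre. All 8 fell in Prx1_Cre against No_Cre, and in Tek_Cre against No_Cre 6 rose and 2 fell. The 5 eosinophil markers summed to 389 to 438 CPM in Prx1_Cre, 22.5 to 27.1 CPM in Tek_Cre and 1552 to 1618 CPM in No_Cre. Of the 6 B cell markers tested, all 6 fell in Prx1_Cre against No_Cre, and 4 rose and 2 fell in Tek_Cre against No_Cre. The 4 endothelial markers summed to 54.6 to 60.7 CPM in Prx1_Cre, 76.4 to 81.5 CPM in Tek_Cre and 98.5 to 102.6 CPM in No_Cre, and the 5 stroma markers to 41.9 to 45.3 CPM in Prx1_Cre, 55.1 to 66.6 CPM in Tek_Cre and 73.2 to 76.5 CPM in No_Cre. Among these 9 genes the endothelial cadherin Cdh5 and the stromal receptors Lepr and Pdgfra had at most 37 counts in the 4 libraries of any group. Mitochondrially encoded genes took 0.282 to 0.456% of counts in Prx1_Cre, 0.105 to 0.126% in Tek_Cre and 0.117 to 0.142% in No_Cre. In bulk RNA, fewer cells of a type and less RNA per cell cannot be told apart, and since these markers follow the groups, their part in the differences below was not tested.

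**Figure D2:**
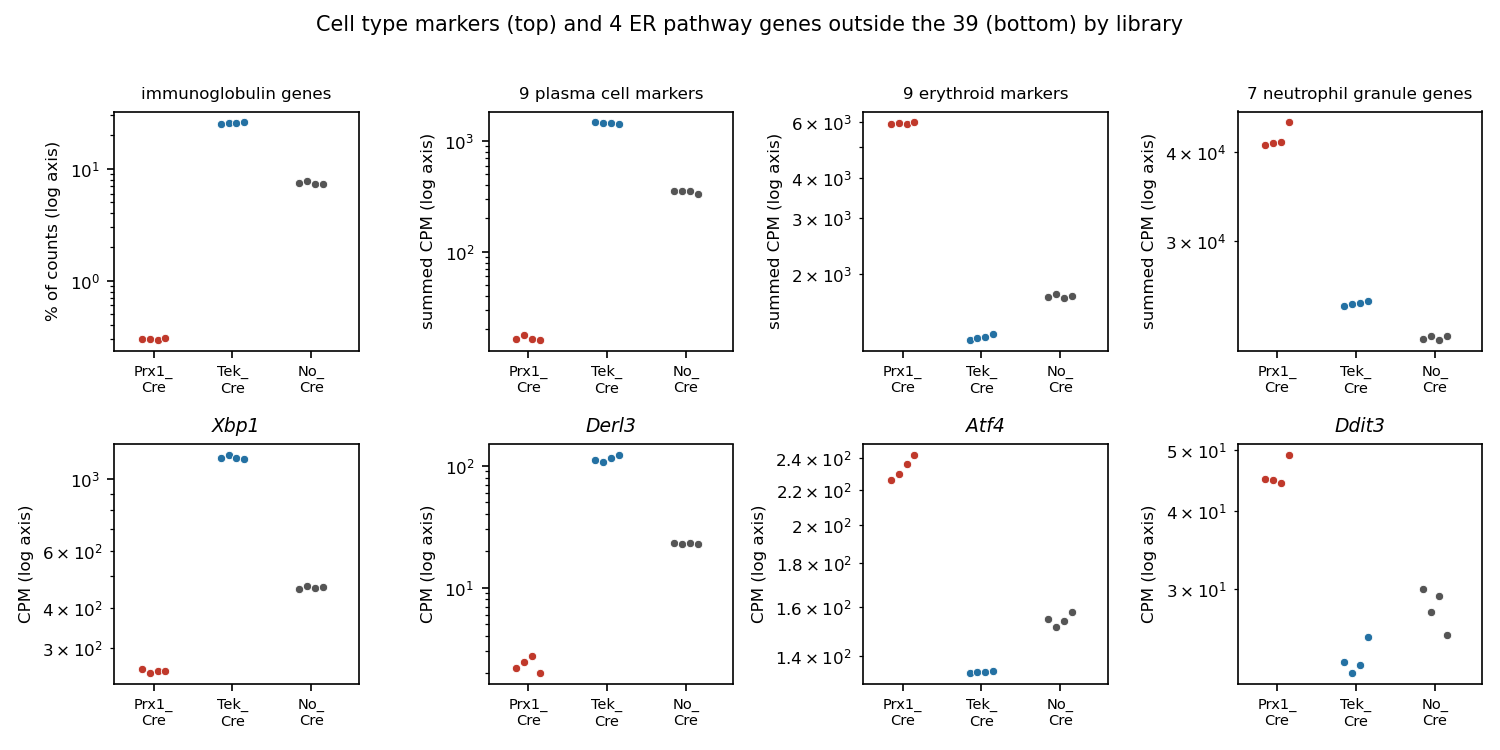
Marker levels (upper row: immunoglobulin genes as % of counts, the others as summed CPM) and 4 ER pathway genes outside the 39 (lower row, CPM), on log axes, with one point per library. Plasma cell markers sit at 16.1 to 17.9 CPM in Prx1_Cre, 1420 to 1469 CPM in Tek_Cre and 333 to 352 CPM in No_Cre, and Xbp1 and Derl3 fall into the same order of groups. The sums of the B cell and LTHSC markers, not drawn, have that order as well.

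In Prx1_Cre against No_Cre, 6 of the 7 chaperones of the Hspa5 group (all but Dnajb9), calnexin, calreticulin and 5 of 7 disulfide or prolyl isomerases rose, while Sel1l, Txndc5, Ssr4, Sec11c and Ern1 fell. Of the 39 genes 34 were called, where 75.6% of all genes tested were called. Among them 25 rose and 9 fell, and of all genes 36.7% rose and 39% fell. The median log2 fold change was 0.29 over the 39 genes and -0.02 over all genes tested. Changes of at least 2-fold were made by 2 members, Hspa5 and Canx, both upward, against 7.69% of all genes upward and 14.2% downward. The libraries did not overlap for 31 of 39 members, against 68.6% of all genes.

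In Tek_Cre against No_Cre, ERAD genes, Creld2, Hsp90b1, Txndc11, Fkbp11, Ssr4 and Sec11c rose, while Calr, P4hb and Atf6 fell. In all 30 of 39 were called, where 52.9% of all genes were called. Of the 39, 27 rose and 3 fell, and of all genes 26.4% rose and 26.5% fell. The median was 0.38 over the 39 genes and 0.0003 over all genes. At least 2-fold rises were seen in 5 members, Creld2, Edem1, Sel1l, Hsp90b1 and Txndc11, against 6.89% of all genes, and no member fell that far, against 5.51% of all genes. The libraries of both groups were apart for 30 of 39 members, against 48.7% of all genes. Both comparisons share the No_Cre libraries, so their values are given side by side below.

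Set directly against each other, Prx1_Cre exceeded Tek_Cre in Canx, Hyou1, Calr, P4hb, Hspa5 and Pdia3, and Tek_Cre exceeded Prx1_Cre in Sel1l, Creld2, Edem1, Ssr4, Fkbp11, Txndc5 and Sec11c. Here 37 of 39 members were called, all but Manf and Derl2, where 77.6% of all genes were called. Of the 39, 17 rose and 20 fell, and of all genes 37.8% rose and 39.8% fell. The median was -0.15 over the 39 genes and -0.01 over all genes. At least 2-fold differences were made by Canx upward and by 7 members downward, against 9.93% and 16.3% of all genes. The libraries did not overlap for 33 of 39 members, against 69.3% of all genes.

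**Figure D3:**
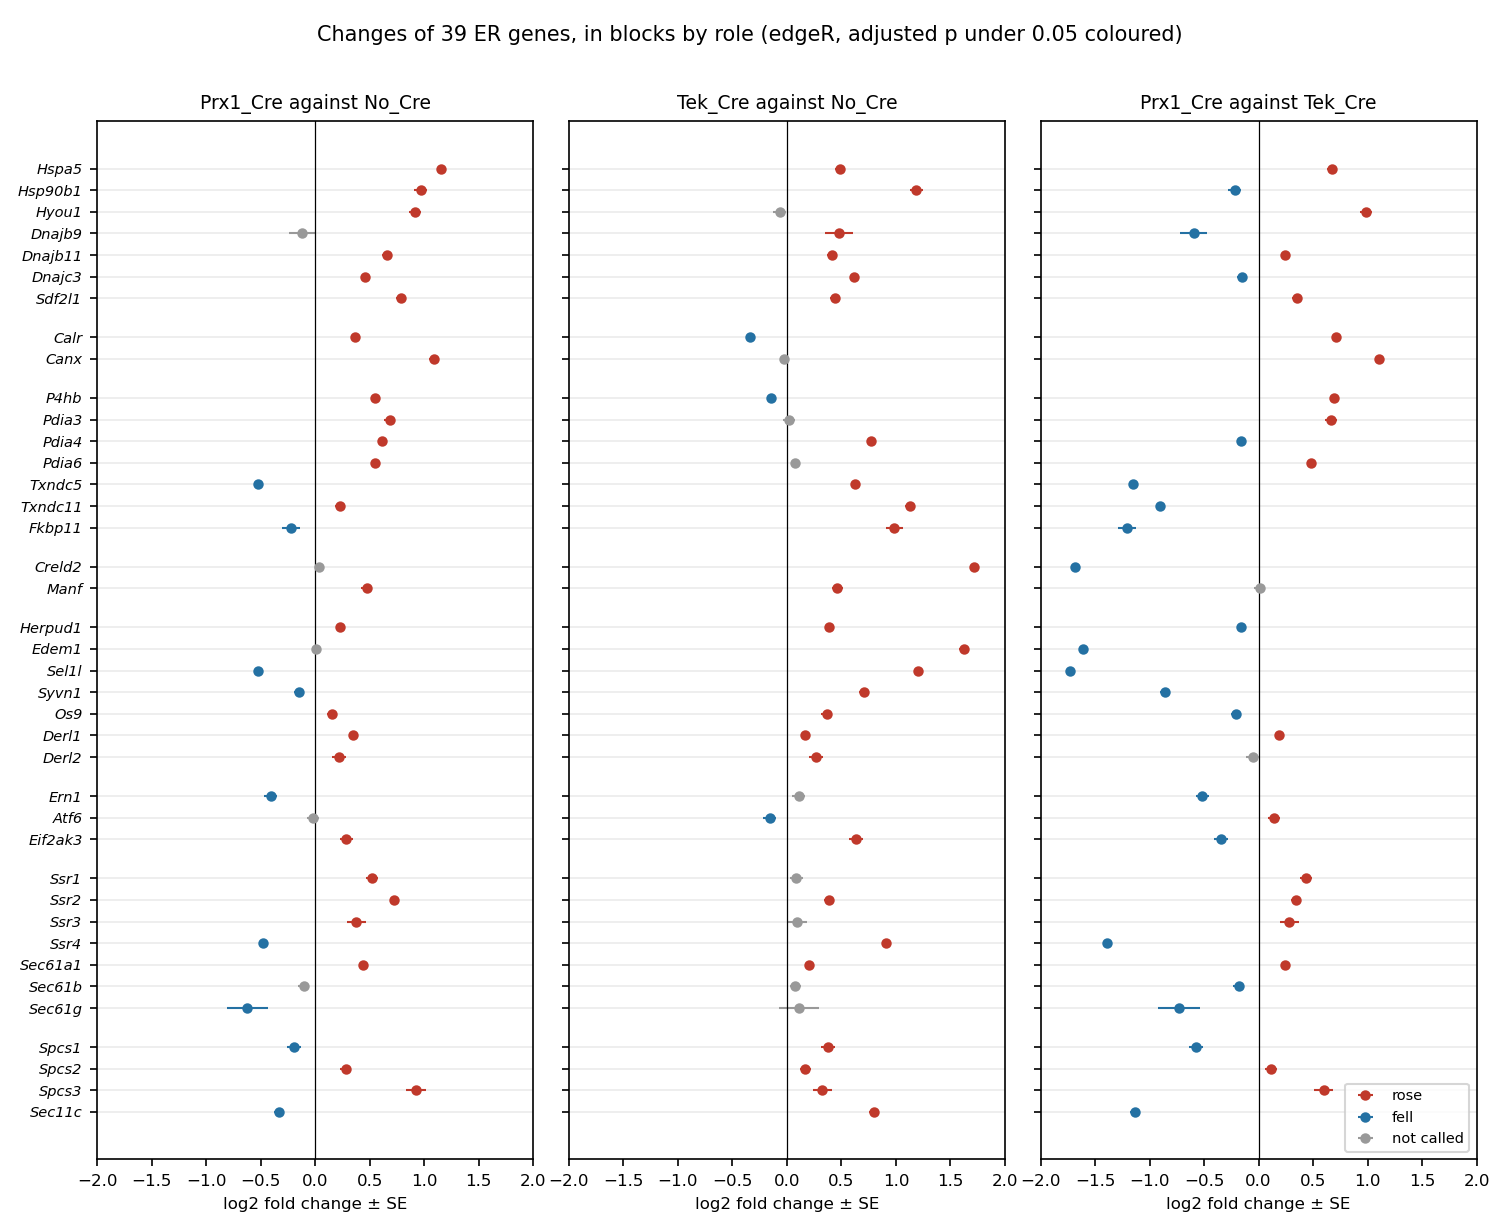
Log2 fold change ± SE of the 39 genes in the 3 comparisons, grouped by role, with called rises in red, called falls in blue and genes not called in grey. Rises make up 25 of the 39 in Prx1_Cre against No_Cre and 27 of the 39 in Tek_Cre against No_Cre, and the split is 17 rises and 20 falls in Prx1_Cre against Tek_Cre.

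By group, 16 members were highest in Prx1_Cre with calls against both other groups (30.4% of all genes), and 17 were highest in Tek_Cre (17.5% of all genes). No member was highest in No_Cre in this sense, against 11.4% of all genes. No_Cre was the lowest of the groups for 17 of 39, against 9.52% of all genes, which are the 17 members that rose in both Cre groups. Prx1_Cre was lowest for 9 members (31.6% of all genes) and Tek_Cre for 3, Calr, P4hb and Atf6 (16.2% of all genes). Opposite calls against No_Cre were made for 9 members. Txndc5, Fkbp11, Sel1l, Syvn1, Ssr4, Spcs1 and Sec11c fell in Prx1_Cre and rose in Tek_Cre, a pattern of 10.6% of all genes, and Calr and P4hb rose in Prx1_Cre and fell in Tek_Cre, a pattern of 10.4% of all genes.

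Together the 39 genes took 1.25 ± 0.0391% of counts in Prx1_Cre, 0.922 ± 0.0266% in Tek_Cre and 0.886 ± 0.0121% in No_Cre (SD, n = 4 each). Taken as a share of the counts outside immunoglobulin genes, the means were 1.25% in Prx1_Cre, 1.24% in Tek_Cre and 0.957% in No_Cre. On that base the means of Prx1_Cre and Tek_Cre differed by less than their spread, while the genes that made up the sum differed. Chaperones of the Hspa5 group summed to 2795 ± 133 CPM in Prx1_Cre, 2155 ± 94.7 CPM in Tek_Cre and 1406 ± 29.04 CPM in No_Cre. The ERAD genes summed to 1197 ± 26.7 CPM in Prx1_Cre, 2052 ± 20.3 CPM in Tek_Cre and 1169 ± 13.9 CPM in No_Cre. Per kilobase of exon, the levels over all 12 libraries spanned more than 2 orders of magnitude, with P4hb (355 CPM per kb), Calr (287), Hspa5 (277), Pdia3 (193) and Pdia6 (144) at the top and Ern1 (3.86), Dnajb9 (2.85) and Sec61g (1.07) at the bottom.

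**Figure D4:**
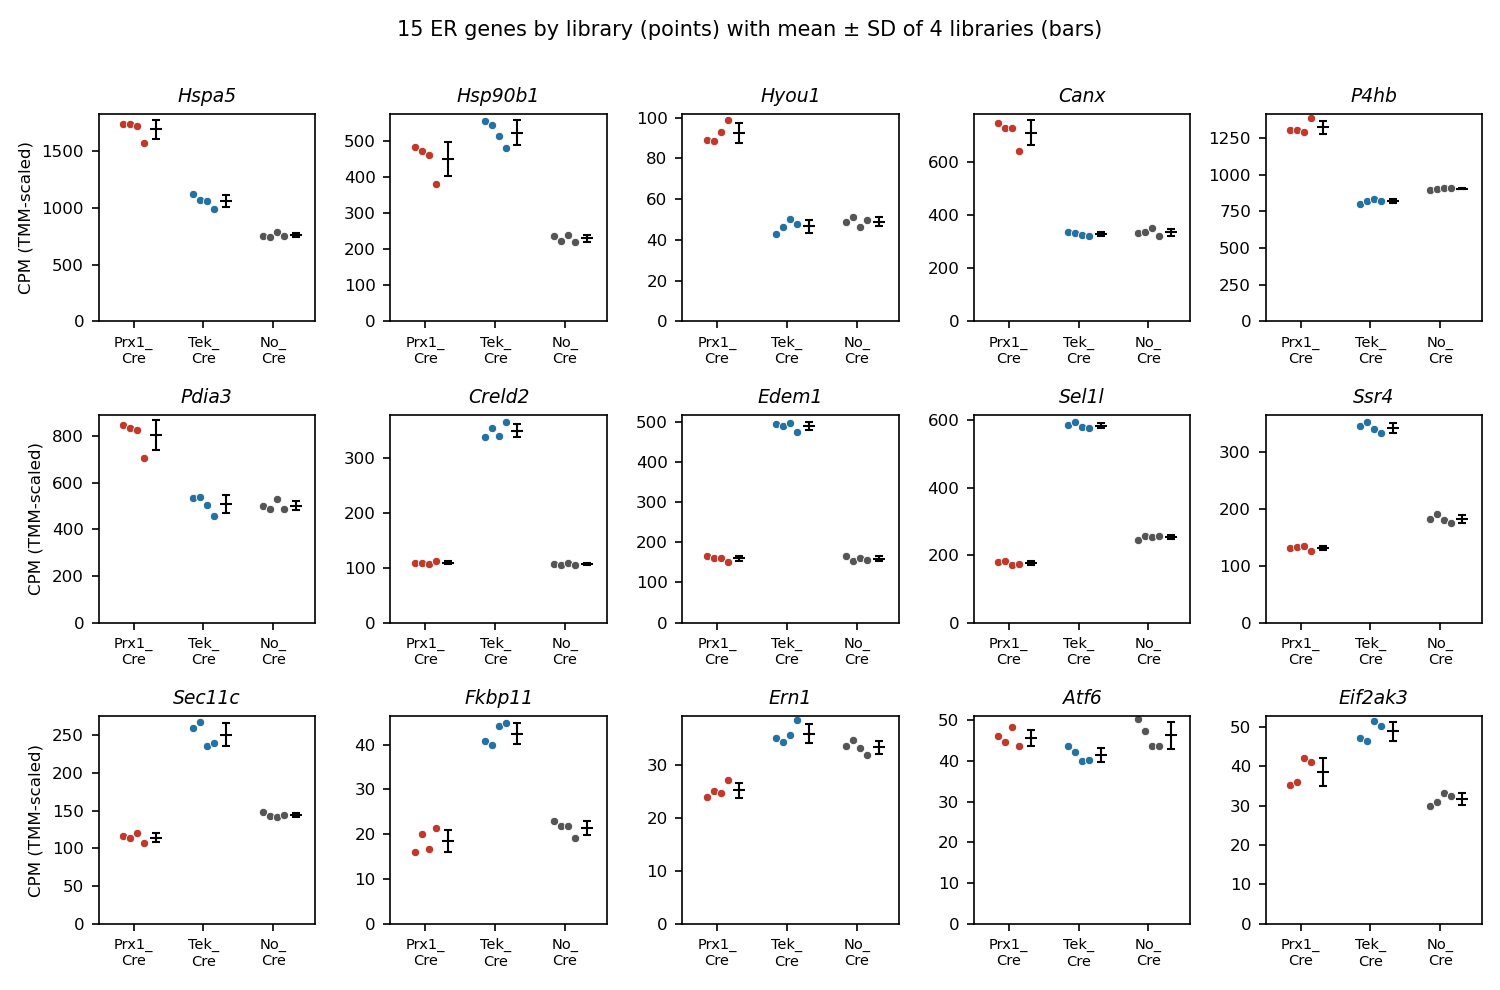
CPM of 15 of the 39 genes in each library (points), with mean ± SD of 4 libraries (bars) and an axis from 0 for each gene. Hspa5, Hyou1, Canx, P4hb and Pdia3 are highest in all 4 Prx1_Cre libraries, and Creld2, Edem1, Sel1l, Ssr4, Sec11c and Fkbp11 in all 4 Tek_Cre libraries.

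The 7 chaperones and co-chaperones of the Hspa5 group keep unfolded chains soluble. In Prx1_Cre against No_Cre 6 rose (36.7% of all genes) and in Tek_Cre against No_Cre 6 rose (26.4% of all genes). The one not called was Dnajb9 in Prx1_Cre and Hyou1 in Tek_Cre. Hspa5 (chr2:34771970-34777547, plus strand), the main Hsp70 of the ER and the brake on all 3 sensors, had 1741, 1736, 1721 and 1569 CPM in Prx1_Cre, 1126, 1067, 1060.2 and 989 in Tek_Cre, and 757, 743, 784 and 749 in No_Cre. The groups were fully apart, with Prx1_Cre highest and No_Cre lowest. The summed CPM of the neutrophil granule genes had the same order, although 4 of those 7 genes fell in Tek_Cre against No_Cre, and their part in it was not tested. The level was 2.23-fold higher in Prx1_Cre than in No_Cre (1.16 ± 0.04 on the log2 scale, adjusted p = 3.19e-17) and 1.40-fold higher in Tek_Cre than in No_Cre (log2 fold change 0.48 ± 0.04, adjusted p = 1.45e-09). Prx1_Cre exceeded Tek_Cre 1.60-fold (adjusted p = 5.85e-13).

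Hsp90b1, the Hsp90 of the ER that folds integrins and Toll-like receptors, had 483, 474, 462 and 382 CPM in Prx1_Cre, 557, 544, 516 and 481 in Tek_Cre, and 237, 224, 241 and 219.8 in No_Cre. Every Cre library lay above every No_Cre library, but here Tek_Cre was the higher of the Cre groups and overlapped Prx1_Cre by 1 library. The log2 fold change was 0.97 ± 0.06 in Prx1_Cre (adjusted p = 9.85e-13) and 1.19 ± 0.06 in Tek_Cre (adjusted p = 9.54e-14) against No_Cre, and -0.22 ± 0.06 in Prx1_Cre against Tek_Cre (adjusted p = 0.00179). Both genes hold exact matches to the ERSE, Hspa5 once and Hsp90b1 at 2 places. Elements that differ from it in any letter of the boxes were not counted.

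Hyou1, which recharges Hspa5 with nucleotide, had 89.2, 88.7, 93.2 and 98.9 CPM in Prx1_Cre, 42.7, 46.3, 50.5 and 47.8 in Tek_Cre, and 48.9, 51.2, 46.3 and 49.6 in No_Cre. Only Prx1_Cre stood apart, and the other groups overlapped. Hyou1 was 1.89-fold higher in Prx1_Cre than in No_Cre (adjusted p = 1.7e-13) and 1.98-fold higher than in Tek_Cre (adjusted p = 4.84e-14), with a log2 difference of -0.07 ± 0.06 in Tek_Cre against No_Cre (adjusted p = 0.326). The partners of Hspa5 were less far apart. Sdf2l1, Dnajb11 and Dnajc3 rose by 0.46 to 0.79 in Prx1_Cre and by 0.41 to 0.62 in Tek_Cre against No_Cre on the log2 scale. Dnajb9, a J-domain helper of Hspa5 and repressor of Ern1, was the lowest of the chaperones, at 6.00 ± 0.590 CPM in Prx1_Cre, 9.22 ± 1.89 CPM in Tek_Cre and 6.53 ± 0.799 CPM in No_Cre. It rose in Tek_Cre (log2 fold change 0.48 ± 0.13, adjusted p = 0.00272), and its log2 difference in Prx1_Cre was -0.12 ± 0.13 (adjusted p = 0.414).

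The lectin chaperones calreticulin and calnexin hold glycoproteins by their sugar chains until they are folded. Canx (chr11:50293961-50325673, minus strand) had 748, 729, 731 and 643 CPM in Prx1_Cre, 338, 335, 327 and 321 in Tek_Cre, and 334, 336, 353 and 321 in No_Cre. Each Prx1_Cre library was far above the others, and Tek_Cre and No_Cre overlapped. Canx was 2.12-fold higher in Prx1_Cre than in No_Cre (adjusted p = 1.95e-16) and 2.16-fold higher than in Tek_Cre (adjusted p = 9.37e-17), while Tek_Cre against No_Cre gave -0.02 ± 0.04 on the log2 scale (adjusted p = 0.692). Calr had 1029, 1032, 1052 and 1042 CPM in Prx1_Cre, 635, 639.6, 647 and 615 in Tek_Cre, and 789, 826, 809 and 791 in No_Cre. Its groups were apart in the order Prx1_Cre, No_Cre, Tek_Cre, so that it rose in Prx1_Cre (log2 fold change 0.37 ± 0.03, adjusted p = 5.85e-10) and fell in Tek_Cre (log2 fold change -0.34 ± 0.03, adjusted p = 1.05e-08). Prx1_Cre exceeded Tek_Cre 1.64-fold (adjusted p = 2.74e-15).

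Of the 7 enzymes that form disulfide bonds or turn prolines, 5 rose and 2 fell in Prx1_Cre against No_Cre (36.7% and 39% of all genes). In Tek_Cre against No_Cre 4 rose, 1 fell and 2 were not called (26.4% of all genes rose and 26.5% fell). P4hb, the most abundant protein disulfide isomerase, had 1309, 1304, 1294 and 1384 CPM in Prx1_Cre, 800.3, 823, 834 and 823 in Tek_Cre, and 899, 904, 907 and 909.9 in No_Cre. It followed the order of Calr, with no overlap between groups. The log2 fold change against No_Cre was 0.55 ± 0.03 in Prx1_Cre (adjusted p = 6.41e-13) and -0.14 ± 0.03 in Tek_Cre (adjusted p = 0.0012). Prx1_Cre exceeded Tek_Cre in P4hb by 0.69 ± 0.03 on the log2 scale (adjusted p = 6.65e-15). Pdia3, the isomerase that works with calnexin and calreticulin, had 847, 837, 829 and 709 CPM in Prx1_Cre, 535, 539, 506 and 459 in Tek_Cre, and 502, 489, 531 and 487 in No_Cre. Its Prx1_Cre libraries were all above the rest (log2 fold change 0.68 ± 0.05 against No_Cre, adjusted p = 4.68e-11), and Tek_Cre and No_Cre overlapped (log2 fold change 0.02 ± 0.05, adjusted p = 0.771).

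Other isomerases were highest in Tek_Cre. Txndc11, a thioredoxin-like protein of the ER membrane, had 103, 112, 106 and 102 CPM in Prx1_Cre, 196, 196, 200.34 and 197 in Tek_Cre, and 83.9, 93.1, 88.9 and 95.2 in No_Cre. All 3 groups were apart and Tek_Cre stood well above the others, 2.19-fold above No_Cre (adjusted p = 1.65e-16), and the rise in Prx1_Cre was 0.23 ± 0.04 on the log2 scale (adjusted p = 5.18e-05). Fkbp11, a prolyl isomerase abundant in secretory cells, had 16.05, 19.96, 16.6 and 21.3 CPM in Prx1_Cre, 40.8, 39.9, 44.2 and 44.8 in Tek_Cre, and 22.9, 21.9, 21.7 and 19.2 in No_Cre. Tek_Cre stood apart at 1.98-fold above No_Cre (adjusted p = 3.51e-10), while Prx1_Cre and No_Cre overlapped. The call of a fall in Prx1_Cre (log2 fold change -0.22 ± 0.08, adjusted p = 0.0182) was lost without No_Cre replicate 1, Prx1_Cre replicate 1 or Prx1_Cre replicate 3 (adjusted p = 0.0616, 0.0915 and 0.0749). Prx1_Cre was 2.31-fold lower than Tek_Cre (adjusted p = 1.65e-12). Txndc5 averaged 257 ± 13.1 CPM in Prx1_Cre, 571 ± 19.5 CPM in Tek_Cre and 369 ± 4.81 CPM in No_Cre and thus fell in Prx1_Cre (log2 fold change -0.52 ± 0.04) and rose in Tek_Cre (log2 fold change 0.63 ± 0.04). Pdia4 rose in both (log2 fold change 0.61 ± 0.03 in Prx1_Cre and 0.77 ± 0.04 in Tek_Cre), and Pdia6 rose in Prx1_Cre (log2 fold change 0.55 ± 0.03) with 0.07 ± 0.03 in Tek_Cre (adjusted p = 0.0717, but 0.0410 with the replicate block, 0.0470 with DESeq2 and 0.0413 without Prx1_Cre replicate 4).

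The secreted stress factors Creld2 and Manf are both known to be induced by ER stress. Creld2 (chr15:88819646-88826683, plus strand) had 108, 108, 107 and 113 CPM in Prx1_Cre, 339, 355, 340.1 and 364 in Tek_Cre, and 106, 105, 109 and 105 in No_Cre. Tek_Cre was far above both other groups, which overlapped. It was 3.29-fold higher in Tek_Cre than in No_Cre (log2 fold change 1.72 ± 0.04, adjusted p = 1.16e-21), the largest rise of any member in that comparison, against a log2 fold change of 0.04 ± 0.04 in Prx1_Cre (adjusted p = 0.398). Prx1_Cre was 3.21-fold lower than Tek_Cre in Creld2 (adjusted p = 8.85e-22). Manf had 104, 106, 111 and 95.4 CPM in Prx1_Cre, 109, 104, 102 and 99.4 in Tek_Cre, and 73.6, 69.5, 79.4 and 78.1 in No_Cre. Both Cre groups were above No_Cre and overlapped each other, with log2 fold changes of 0.47 ± 0.05 in Prx1_Cre (adjusted p = 1.28e-08) and 0.46 ± 0.05 in Tek_Cre (adjusted p = 8.27e-08). Exons of Manf share bases with Dcaf1 (146 bases, opposite strand) and Rbm15b (14 bases, same strand), and since the strand setting of the counting is not stated, its value may hold reads of those genes.

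All 7 ERAD genes rose in Tek_Cre against No_Cre, where 26.4% of all genes rose. In Prx1_Cre against No_Cre 4 rose, 2 fell and 1 was not called (36.7% of all genes rose and 39% fell). Sel1l (chr12:91806043-91849157, minus strand), the adaptor of the ubiquitin ligase that draws misfolded proteins out of the ER, had 179, 182, 169.6 and 174 CPM in Prx1_Cre, 585, 594, 581 and 578 in Tek_Cre, and 246, 256, 254 and 257 in No_Cre. The order was Tek_Cre, No_Cre, Prx1_Cre, with wide gaps. The plasma cell markers had that order too (16.1 to 17.9 CPM in Prx1_Cre, 1420 to 1469 CPM in Tek_Cre and 333 to 352 CPM in No_Cre). So did the sums of the LTHSC markers (1250 to 1301 CPM in Prx1_Cre, 2497 to 2522 CPM in Tek_Cre and 2171 to 2219 CPM in No_Cre) and of the B cell markers. In each of these 2 lists 2 genes fell in Tek_Cre against No_Cre. The part of all these markers in the order was not tested. Sel1l was 2.31-fold higher in Tek_Cre than in No_Cre (adjusted p = 4.39e-19), fell by 0.52 on the log2 scale in Prx1_Cre (adjusted p = 2.88e-12), and was 3.32-fold lower in Prx1_Cre than in Tek_Cre (adjusted p = 1.38e-22), the widest difference of any member between the Cre groups. Edem1 (chr6:108828641-108859356, plus strand), which trims the sugars of glycoproteins bound for removal, had 167, 162, 161 and 152 CPM in Prx1_Cre, 495, 489.5, 497 and 476 in Tek_Cre, and 166, 152, 162 and 155 in No_Cre. As in Creld2, Tek_Cre alone was apart, 3.08-fold above No_Cre (adjusted p = 9.44e-21), and Prx1_Cre and No_Cre overlapped (log2 fold change 0.01 ± 0.04, adjusted p = 0.815).

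Os9, a lectin that hands substrates to Sel1l, had 349, 361, 356 and 398 CPM in Prx1_Cre, 400.1, 403, 426 and 463 in Tek_Cre, and 331, 311, 328 and 345 in No_Cre. The groups were apart in the order Tek_Cre, Prx1_Cre, No_Cre. It rose in both Cre groups against No_Cre, with a log2 fold change in Prx1_Cre (log2 fold change 0.15 ± 0.05, adjusted p = 0.00616) below that in Tek_Cre (log2 fold change 0.36 ± 0.05, adjusted p = 1.15e-06), and the call in Prx1_Cre was lost with upper-quartile scaling (adjusted p = 0.254). Syvn1, the ubiquitin ligase itself, rose in Tek_Cre (log2 fold change 0.71 ± 0.05) and fell in Prx1_Cre (log2 fold change -0.15 ± 0.05, adjusted p = 0.00786, with overlap). Herpud1, the scaffold of that ligase and the one member with ERSE-II, rose by 0.23 ± 0.04 on the log2 scale in Prx1_Cre and 0.39 ± 0.04 in Tek_Cre. Derl1 and Derl2, which form part of the exit channel, rose on the log2 scale by 0.35 ± 0.04 and 0.22 ± 0.06 in Prx1_Cre and by 0.17 ± 0.04 and 0.27 ± 0.07 in Tek_Cre. Syvn1 shares 91 exonic bases with Mrpl49 and Derl2 shares 231 with Mis12, both on the opposite strand and well counted, so both values carry the uncertainty named for Manf.

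Of the 3 sensors 1 rose, 1 fell and 1 was not called in each Cre group against No_Cre. Of all genes 36.7% rose and 39% fell in Prx1_Cre, and 26.4% rose and 26.5% fell in Tek_Cre. The sensor that rose was Eif2ak3 in both Cre groups. Ern1 fell and Atf6 was not called in Prx1_Cre, and Atf6 fell and Ern1 was not called in Tek_Cre. Ern1, which senses unfolded protein and splices Xbp1 mRNA, had 24.0, 25.1, 24.8 and 27.2 CPM in Prx1_Cre, 35.2, 34.5, 35.8 and 38.6 in Tek_Cre, and 33.7, 34.9, 33.3 and 31.9 in No_Cre. Prx1_Cre was below all other libraries (log2 fold change -0.41 ± 0.06 against No_Cre, adjusted p = 1.18e-06), and Tek_Cre and No_Cre overlapped (log2 fold change 0.11 ± 0.06, adjusted p = 0.124). Prx1_Cre against Tek_Cre gave -0.52 ± 0.06 on the log2 scale (adjusted p = 3.02e-08). Eif2ak3, the kinase that slows translation when the ER is overloaded, had 35.2, 36.0, 42.1 and 41.0 CPM in Prx1_Cre, 47.2, 46.6, 51.6 and 50.2 in Tek_Cre, and 29.9, 31.0, 33.2 and 32.4 in No_Cre. Its groups were apart in the order Tek_Cre, Prx1_Cre, No_Cre, with log2 fold changes of 0.29 ± 0.06 in Prx1_Cre (adjusted p = 0.000275) and 0.63 ± 0.06 in Tek_Cre (adjusted p = 1.59e-08) against No_Cre. Atf6, the sensor that becomes a transcription factor, had 46.1, 44.7, 48.4 and 43.8 CPM in Prx1_Cre, 43.8, 42.2, 40.1 and 40.1 in Tek_Cre, and 50.5, 47.4, 43.7 and 43.7 in No_Cre. All 3 groups overlapped. Atf6 had a log2 fold change of -0.02 ± 0.06 in Prx1_Cre (adjusted p = 0.779) and was called lower in Tek_Cre (log2 fold change -0.16 ± 0.06, adjusted p = 0.0241) against No_Cre. That call was lost without No_Cre replicate 1 or 2 or Tek_Cre replicate 3 or 4 (adjusted p = 0.102, 0.0596, 0.0630 and 0.0560). Prx1_Cre against Tek_Cre gave a log2 fold change of 0.14 ± 0.06 (adjusted p = 0.03), a call lost with upper-quartile scaling (adjusted p = 0.339) and without Tek_Cre replicate 3 or 4 or Prx1_Cre replicate 3 (adjusted p = 0.0828, 0.0755 and 0.0906).

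The 7 translocon genes form the Sec61 channel and the attached translocon-associated complex (Ssr genes). In Prx1_Cre against No_Cre 4 rose, 2 fell and 1 was not called (36.7% of all genes rose and 39% fell). In Tek_Cre against No_Cre 3 rose and 4 were not called (26.4% of all genes rose and 26.5% fell). Sec61a1, the pore itself, had 499, 499, 497 and 535 CPM in Prx1_Cre, 429, 412, 442 and 431 in Tek_Cre, and 364, 380.2, 377 and 371 in No_Cre. The groups were apart in the order Prx1_Cre, Tek_Cre, No_Cre, with rises on the log2 scale of 0.44 ± 0.04 in Prx1_Cre (adjusted p = 1.11e-10) and 0.20 ± 0.04 in Tek_Cre (adjusted p = 7.28e-05). Ssr2, a subunit of the translocon-associated complex, had 319.7, 324, 317 and 352 CPM in Prx1_Cre, 248, 256, 268 and 263 in Tek_Cre, and 201, 197, 194 and 201 in No_Cre. It showed the same order with wider gaps, and log2 fold changes of 0.73 ± 0.04 in Prx1_Cre (adjusted p = 5.86e-14) and 0.38 ± 0.04 in Tek_Cre (adjusted p = 2.54e-08) against No_Cre.

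Ssr4 belongs to the same complex as Ssr2 but took another course. It had 131, 133, 135 and 125 CPM in Prx1_Cre, 345, 353, 341 and 333 in Tek_Cre, and 182, 192, 179.8 and 176 in No_Cre. The Tek_Cre libraries were highest and the Prx1_Cre libraries lowest, with no overlap. Ssr4 was 1.88-fold higher in Tek_Cre than in No_Cre (adjusted p = 1.19e-15), fell by 0.48 on the log2 scale in Prx1_Cre (adjusted p = 9.27e-11) and was 2.62-fold lower in Prx1_Cre than in Tek_Cre (adjusted p = 8.92e-20). The other subunits of that complex, Ssr1 and Ssr3, rose in Prx1_Cre (log2 fold changes 0.52 ± 0.05 and 0.38 ± 0.08), and in Tek_Cre their log2 fold changes were 0.09 ± 0.06 and 0.10 ± 0.09 (adjusted p = 0.19 and 0.368). Sec61g, a small subunit of the channel, fell in Prx1_Cre (log2 fold change -0.62 ± 0.19, adjusted p = 0.00464) on few counts, 201 in all Prx1_Cre libraries, 247 in Tek_Cre and 278 in No_Cre. Sec61b, the other small subunit, averaged 44.9 ± 1.02 CPM in Prx1_Cre, 50.8 ± 2.38 CPM in Tek_Cre and 48.3 ± 1.83 CPM in No_Cre, with a log2 fold change of -0.11 ± 0.05 in Prx1_Cre against No_Cre (adjusted p = 0.0572). That difference was called with upper-quartile scaling (adjusted p = 0.000851), with a stricter filter (0.0417), with the replicate block (0.0493) and without immunoglobulin genes (0.0430), No_Cre replicate 4 (0.0399) or Tek_Cre replicate 4 (0.0408).

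Signal peptidase cuts the signal peptide from the entering chain. In Tek_Cre against No_Cre all 4 of its genes rose (26.4% of all genes). In Prx1_Cre against No_Cre 2 rose and 2 fell (36.7% and 39% of all genes). Spcs3, an accessory subunit, had 269.7, 266, 262 and 188 CPM in Prx1_Cre, 177, 175, 152 and 148 in Tek_Cre, and 129, 132, 134 and 125 in No_Cre. Prx1_Cre was highest and No_Cre lowest without overlap (log2 fold change 0.92 ± 0.09 in Prx1_Cre, adjusted p = 1.75e-08, and 0.33 ± 0.09 in Tek_Cre, adjusted p = 0.00493), though Prx1_Cre replicate 4 lay well below its group. With no filter on low counts the Tek_Cre call was lost (adjusted p = 0.0907). Sec11c, a catalytic subunit, had 117, 113, 120.1 and 106 CPM in Prx1_Cre, 259, 267, 236 and 240.0 in Tek_Cre, and 148, 142, 141 and 145 in No_Cre. The order was Tek_Cre, No_Cre, Prx1_Cre, again without overlap. Sec11c was 1.74-fold higher in Tek_Cre than in No_Cre (adjusted p = 3.87e-13), fell by 0.34 on the log2 scale in Prx1_Cre (adjusted p = 4.55e-07), and Prx1_Cre against Tek_Cre gave a log2 fold change of -1.13 ± 0.05 (adjusted p = 1.04e-16).

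Spcs2, another accessory subunit, had 249, 256, 257 and 218 CPM in Prx1_Cre, 238, 241, 214 and 213 in Tek_Cre, and 195, 199.98, 212 and 199 in No_Cre. Both Cre groups lay above all No_Cre libraries and overlapped each other. Against No_Cre it rose by 0.28 ± 0.05 on the log2 scale in Prx1_Cre (adjusted p = 2.97e-05) and 0.17 ± 0.05 in Tek_Cre (adjusted p = 0.00873). The call between Prx1_Cre and Tek_Cre (log2 fold change 0.11 ± 0.05, adjusted p = 0.0485) was lost when any 1 of 8 of the 12 libraries was left out, at adjusted p between 0.0526 and 0.161. Spcs1 averaged 80.1 ± 9.01 CPM in Prx1_Cre, 119 ± 9.72 CPM in Tek_Cre and 91.7 ± 1.37 CPM in No_Cre, so that it fell in Prx1_Cre (log2 fold change -0.19 ± 0.06) and rose in Tek_Cre (log2 fold change 0.38 ± 0.06) against No_Cre. Exons of Spcs1 share 252 bases with Glt8d1 on the opposite strand (6577 counts in the 12 libraries, against 26755 for Spcs1). Its value and both calls thus carry the uncertainty named for Manf.

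A wider list of ER genes outside the 39 held 77 symbols, of which 70 were matched and 69 tested. In Prx1_Cre against No_Cre 43 of the 69 rose (36.7% of all genes), 15 fell (39% of all genes) and 11 were not called, with a median log2 fold change of 0.28. In Tek_Cre against No_Cre 41 rose (26.4% of all genes), 13 fell (26.5% of all genes) and 15 were not called (median 0.16). In Prx1_Cre against Tek_Cre 34 rose (37.8% of all genes), 23 fell (39.8% of all genes) and 12 were not called (median 0.07).

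Among transcription factors of the response, outside the 39, Xbp1 went one way and Atf4 and Ddit3 the other. Xbp1, the target of Ern1 and driver of ER growth in plasma cells, had 259.7, 252, 256 and 254 CPM in Prx1_Cre, 1156, 1181, 1156 and 1150.2 in Tek_Cre, and 457, 466, 461 and 463 in No_Cre. The groups were far apart, with Tek_Cre highest and Prx1_Cre lowest, as for Sel1l, Ssr4, Sec11c and the sums of plasma cell, B cell and LTHSC markers. Xbp1 fell by 0.85 in Prx1_Cre (adjusted p = 7.26e-17) and rose by 1.33 ± 0.03 on the log2 scale in Tek_Cre (adjusted p = 1.05e-20) against No_Cre. Atf4, the factor translated when Eif2ak3 is active, had 226, 229, 236 and 242 CPM in Prx1_Cre, 134, 134, 134 and 134 in Tek_Cre, and 155, 152, 154 and 158 in No_Cre. It rose in Prx1_Cre (log2 fold change 0.60 ± 0.04, adjusted p = 2.81e-13) and fell in Tek_Cre (log2 fold change -0.20 ± 0.04, adjusted p = 4.87e-05), with no overlap. Ddit3, a target of Atf4, averaged 45.7 ± 2.20 CPM in Prx1_Cre, 23.3 ± 1.36 CPM in Tek_Cre and 28.1 ± 2.06 CPM in No_Cre and moved the same way, with log2 fold changes of 0.70 ± 0.06 in Prx1_Cre (adjusted p = 3.2e-10) and -0.27 ± 0.07 in Tek_Cre (adjusted p = 0.00163).

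The 3 largest changes among called genes of the wider list were those of Kdelr3, Derl3 and Ero1l in Prx1_Cre against No_Cre, and those of Kdelr3, Derl3 and Wfs1 in both Tek_Cre against No_Cre and Prx1_Cre against Tek_Cre. Derl3, a relative of Derl1 and Derl2, averaged 2.35 ± 0.331 CPM in Prx1_Cre, 114 ± 5.93 CPM in Tek_Cre and 22.9 ± 0.203 CPM in No_Cre, with log2 fold changes of -3.28 ± 0.08 in Prx1_Cre (adjusted p = 1.86e-20) and 2.32 ± 0.06 in Tek_Cre (adjusted p = 9.01e-21) against No_Cre. Kdelr3, a receptor that returns escaped chaperones to the ER, had 3 counts in all Prx1_Cre libraries, 478 in Tek_Cre and 62 in No_Cre, and rose in Tek_Cre against No_Cre (log2 fold change 3.21 ± 0.19, adjusted p = 1.12e-12). Wfs1, an ER membrane protein known from Wolfram syndrome, averaged 2.47 ± 0.634 CPM in Prx1_Cre, 18.1 ± 1.24 CPM in Tek_Cre and 5.55 ± 0.579 CPM in No_Cre, with log2 fold changes of -1.18 ± 0.14 in Prx1_Cre (adjusted p = 7.14e-08) and 1.70 ± 0.11 in Tek_Cre (adjusted p = 1.17e-11). Ero1l, the oxidase that recharges P4hb, went the other way and averaged 136 ± 11.5 CPM in Prx1_Cre, 56.5 ± 5.27 CPM in Tek_Cre and 46.2 ± 1.06 CPM in No_Cre, with log2 fold changes of 1.56 ± 0.06 in Prx1_Cre (adjusted p = 1.41e-16) and 0.29 ± 0.06 in Tek_Cre (adjusted p = 0.000668).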

How the data were processed

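The authors deposited one table of raw counts per gene, with 48795 genes and 1 column for each of the 12 libraries. The submitters' processing notes list HTSeq 0.9.1, STAR 2.5.3a, DESeq2 1.18.1, Trim Galore 0.4.4 and the build GRCm38 without saying what each did. Per the labels' protocols, cDNA was made with a SMARTer kit for low input and finished with Nextera XT. Strand setting, annotation release and handling of reads that match several genes are not given in the sources used here.

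Groups were taken from the sample titles. Counts were fitted with edgeR 4.0.16 in R 4.3.3 (robust quasi-likelihood test, TMM factors, group as the only term, the 12 libraries fitted jointly). Filtering with filterByExpr kept 14756 genes, over which p-values were adjusted by Benjamini-Hochberg. Means are given ± SD over 4 libraries. Exon lengths, coordinates and overlaps come from GENCODE M21. The fit was tested on simulated data in which few genes were changed, in random directions. That setting differs from these data, where most genes were called, so it cannot show how scaling and calls perform under such wide shifts.

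Values per library are given for the sensors and, within each role, for the member of highest mean and of largest change in each comparison, and of the wider ER list for Xbp1, Atf4, Ddit3 and the 3 largest called changes in each comparison. The members, lists and rules were chosen with earlier results of these data known. Alternatives were RLE and upper-quartile factors, no and a stricter filter, a replicate block, leaving out immunoglobulin genes or 1 library, a test against a 1.5-fold change, fits of 8 libraries and DESeq2 1.42.0.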

Additional observations from a re-analysis of the deposited data

Results flagged for a closer look

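In 6 of the 39 genes 1 library lay far from the other 3 of its group by Dixon's test, and in all 6 that library was Prx1_Cre replicate 4. Of 117 such tests, 1 for each gene and group, chance alone flags about 1 in 20, or 5.85. That figure takes the values within a group as independent and normally spread. It does not say how far the count may stray from it when genes vary together, or how flags fall over libraries. Mitochondrially encoded genes took 0.282% of counts in Prx1_Cre replicate 4, against 0.404 to 0.456% in the rest of its group. The 39 genes took 1.19%, against 1.26 to 1.27%. Its sum of disulfide or prolyl isomerases, 3470 CPM, lay within the range of the rest, 3450 to 3471 CPM. The cause was not tested. Hspa5 was at 1569 CPM in Prx1_Cre replicate 4, against 1721 to 1741 CPM in the others, Pdia3 at 709 CPM, against 829 to 847 CPM, Spcs3 at 188 CPM, against 262 to 269.7 CPM, and Dnajb9 at 5.13 CPM, against 6.22 to 6.41 CPM. In P4hb it was higher, at 1384 CPM against 1294 to 1309 CPM, and likewise in Sec61a1, at 535 CPM against 497 to 499 CPM.

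Without that library, 25 members rose and 9 fell in Prx1_Cre against No_Cre, as with it. Of the 15110 genes then tested, 5523 rose and 5962 fell. The log2 fold changes in Prx1_Cre against No_Cre were then 1.19 for Hspa5, 0.74 for Pdia3, 1.03 for Spcs3, 0.52 for P4hb and 0.42 for Sec61a1.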

How the results depend on the processing

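No call of the 39 genes turned round in any alternative, and the counts given stayed within 1.5 times of their values except in the test against a 1.5-fold change. That test left 9 members risen and 0 fallen in Prx1_Cre against No_Cre, 10 and 0 in Tek_Cre against No_Cre, and 5 and 9 in Prx1_Cre against Tek_Cre. For the wider ER list it left 9 and 6, 5 and 0, and 10 and 9 in the same comparisons. Of all 14756 genes, it left 1848 risen and 2694 fallen, 1045 and 790, and 2225 and 3010 in that order. Outside immunoglobulin genes, the share of counts of the 39 genes was 1.24% in Tek_Cre and 0.957% in No_Cre. With upper-quartile factors the median of all genes was -0.11 in Prx1_Cre against No_Cre, 5 calls were lost (Derl2 and Os9 there, and Atf6, Ssr3 and Spcs2 in Prx1_Cre against Tek_Cre) and 1 was gained (Sec61b). Creld2 (-0.0589) and Edem1 (-0.0843) in Prx1_Cre against No_Cre and Manf (-0.0691) in Prx1_Cre against Tek_Cre changed sign there, and Pdia3 in Tek_Cre against No_Cre did so with no filter (-0.00277), none of them called. The cause was not tested.

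Leaving out 1 library at a time gave 25 to 25 members risen and 8 to 10 fallen in Prx1_Cre against No_Cre, 27 to 28 and 2 to 3 in Tek_Cre against No_Cre, and 15 to 17 and 20 to 20 in Prx1_Cre against Tek_Cre. Log2 fold changes that were not called changed sign within -0.0504 to 0.0220 (Atf6) and -0.0107 to 0.0347 (Edem1) in Prx1_Cre against No_Cre, -0.0103 to 0.0642 (Pdia3) in Tek_Cre against No_Cre and -0.0191 to 0.0529 (Manf) in Prx1_Cre against Tek_Cre.

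Replicate numbers recur in the groups. Deviations of same-numbered libraries correlated at -0.03 to 0.20 over 12 pairs, against -0.14 to 0.06 over 36 pairs of other numbers, and the best match had the same number in 15 of 24 cases, among them all 6 cases of replicate 4. This is a hint from the data that same-numbered libraries may have more in common than others. No label says what a number marks and 10 of the 12 same-numbered pairs correlated at 0.1 or less, so the fit without the block was kept. With the replicate block, 25 members rose and 10 fell in Prx1_Cre against No_Cre, 28 rose and 3 fell in Tek_Cre against No_Cre, and 17 rose and 20 fell in Prx1_Cre against Tek_Cre. Of all 14756 genes, 5532 rose and 5886 fell, 4177 and 4191, and 5685 and 6006 in that order. Sec61g, at 201 counts in all Prx1_Cre libraries, is the member most limited by depth.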

Other observations

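Within the ER genes, partners with related tasks were present in different proportions in the groups. These ratios of CPM were chosen after the values were seen and carry no test. Sec11c and Sec11a are alternative catalytic subunits of signal peptidase, and Sec11c stood to Sec11a as 1.13 ± 0.0324 in Prx1_Cre, 2.81 ± 0.125 in Tek_Cre and 1.49 ± 0.0745 in No_Cre (SD, n = 4 each). Ero1lb and Ero1l are alternative oxidases of protein disulfide isomerase, and Ero1lb stood to Ero1l as 0.0803 ± 0.00904 in Prx1_Cre, 0.881 ± 0.0746 in Tek_Cre and 0.343 ± 0.0297 in No_Cre. Both ratios were thus highest in Tek_Cre and lowest in Prx1_Cre. That was the order of the summed plasma cell, B cell and LTHSC markers, whose part in the ratios was not tested. Among chaperones, Hsp90b1 stood to Hspa5 as 0.266 ± 0.0153 in Prx1_Cre, 0.494 ± 0.0112 in Tek_Cre and 0.304 ± 0.00829 in No_Cre. The ERAD gene Edem1 stood to Hspa5 as 0.0947 ± 0.00175 in Prx1_Cre, 0.462 ± 0.0172 in Tek_Cre and 0.210 ± 0.00682 in No_Cre.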
